A study of Homo sapiens with 4 samples.

Results

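HEK293T cells, a human embryonic kidney line, were transfected with an expression vector for SF3B1 carrying either the K666T or the K700E substitution, and their RNA was compared directly. The comparison covers 2 of the 4 libraries of the study. They were chosen by the vector named in their labels, with no measured value used. The K666T library came from cells given 1000 ng of plasmid and the K700E library from cells given 2000 ng. The substitution and the amount of plasmid therefore cannot be told apart in any difference below. The other libraries, given here as values for context, came from the same line with the wild-type SF3B1 vector (WT, plasmid amount not stated in the labels) or with the R625H vector (1000 ng). All 4 libraries also hold the transcripts of the cells' own SF3B1 genes. Each vector has 1 library, so no difference has a replicate check, and the tests on junction reads compare these libraries, not the conditions.

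SF3B1 is the largest subunit of SF3b, the part of the U2 snRNP that clamps the branch point adenosine of an intron before the first step of splicing. R625, K666 and K700 lie in its HEAT-repeat domain and are recurrently substituted in myelodysplastic syndromes, chronic lymphocytic leukaemia and uveal melanoma. The substituted proteins are known for the use of cryptic acceptors (3′ splice sites) a short distance upstream of the usual acceptor, where the branch point of the usual site is bypassed. K666T replaces a basic residue with an uncharged one, and K700E replaces a basic residue with an acidic one. K666 and K700 are 34 codons apart. The reference codons, from the GENCODE 29 transcript of SF3B1 (GRCh38, a protein of 1304 residues) and not from the vectors, are shown in capitals below to place the substitutions.
R625H: gatgagtatgtcCGTaacacaacagct
K666T: cacactggtattAAGattgtacaacag
K700E: gatgagcagcagAAAgttcggaccatc

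The acceptor pairs that differed between the libraries are easiest to follow with their sequences. In a pair, 1 donor (5′ splice site) is joined to either of 2 neighbouring acceptors, and the upstream share is the percentage of the pair's uniquely mapped junction reads that use the acceptor nearer the donor. The lines below run 5′ to 3′ from GENCODE 29 transcripts (GRCh38) and end just past the downstream acceptor, with the AG before each acceptor in capitals. TMEM14C, SCAMP3, MYL6, DYNLL1 and ZDHHC16 come from transcripts in which 1 exon spans both acceptors, so both AGs are shown. Whether the bases between the acceptors are usually intron or exon was not tested. ZNF771, ZNF76 and TCEA2 come from transcripts that use the upstream acceptor, so the line starts at the base after it. The first 6 lines are pairs whose share was higher in the K666T library. DYNLL1 and ZDHHC16, pairs known from SF3B1-mutant cells, are given for comparison because their shares differed by less than 10 percentage points.
TMEM14C: cctctgatccAGcttgttttctgcAGgtgc
ZNF771: ctccccgcctcAGgaca
ZNF76: acttttcccccAGgttc
TCEA2: ccctgttcacAGgtgc
SCAMP3: gtccAGttcagccctgctttttccAGgaca
MYL6: ggccttccAGctgtttgaccgaacAGgtga
DYNLL1: cccttaccccAGgccttgcccactAGgtaa
ZDHHC16: accAGtcttcgcccctcttttcttAGttct
Among 100 named or listed pairs with such a sequence, all 100 had AG before the downstream acceptor. All 57 whose upstream acceptor lay inside the sequence had AG before it. Only junctions with a GT-AG, GC-AG or AT-AC motif were used, so this checks the placement of the sites and is no trait of these pairs.

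The libraries held 68666760 (K666T) and 71122502 (K700E) uniquely mapped junction reads, and 86394759 and 83025588 reads assigned to genes. The share of read pairs that could not be mapped was 17.3% in K666T and 15.2% in K700E. It was 8.84% in WT and 16.5% in R625H. Several genes typical of HEK293 cells were read at similar levels in K666T and K700E. LIN28B, an RNA-binding protein, was at 153 and 165 CPM (gene reads scaled to a common library total), and NEFM, a neurofilament, at 335 and 389 CPM. EYA1 was at 8.35 and 7.55 CPM, while PAX2 was low and differed more, at 1.75 and 2.65 CPM. The leukocyte genes PTPRC and CD3E were at or under 0.0723 CPM in K666T and K700E. Of the other cell type markers, ALB, GFAP and MYOD1 were at or under 0.694 CPM in these libraries. The fibroblast gene COL1A1 was higher, at 23.7 and 24.8 CPM, and the monocyte gene CD14 was at 1.33 and 1.10 CPM. Below, 4 values given after a name with no further label are those of WT, R625H, K666T and K700E, in this order. SF3B1 itself was at 521 CPM in K666T and 512 in K700E, beside 506 in WT and 517 in R625H. The 4 libraries thus lay within a narrow band, and the larger plasmid dose was not visible in this count. Reads of cell and vector transcripts were not told apart. Whether vector transcripts were counted at all was not tested, so the count does not measure expression from the vector.

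The upstream acceptor was used more in the K666T library than in the K700E library at a small set of annotated pairs, led by TMEM14C, ZNF76, ZNF771, TCEA2, TRIM39 and SCAMP3. With repeat-mapping reads added, ZNF76, ZNF771, TCEA2, TRIM39 and SCAMP3 stayed called, and TMEM14C differed by 9.81 points, just under the threshold of size. A pair was tested where both libraries had at least 20 reads on it, and called at a Benjamini-Hochberg adjusted p under 0.05 (Fisher's exact test, two-sided) with a difference of at least 10 percentage points. Of 9046 pairs 10 to 30 nt apart, 231 (2.55%) were called higher in K666T and 202 (2.23%) higher in K700E. Most of these rested on a site with no unique read in at least 1 library: 198 of the 231 and 178 of the 202. Of the 3725 pairs with both sites read in all 4 libraries, 19 (0.510%) were higher in K666T and 11 (0.295%) higher in K700E. With the downstream acceptor also annotated, 2672 pairs remained, of which 10 (0.374%) were higher in K666T and 1 (0.0374%) in K700E. In this last set 30 pairs had an adjusted p under 0.05 at any size of difference, 20 higher in K666T and 10 higher in K700E. The smallest called difference was 11.3 points and the largest that missed the threshold was 9.34 points.

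**Figure D1:**
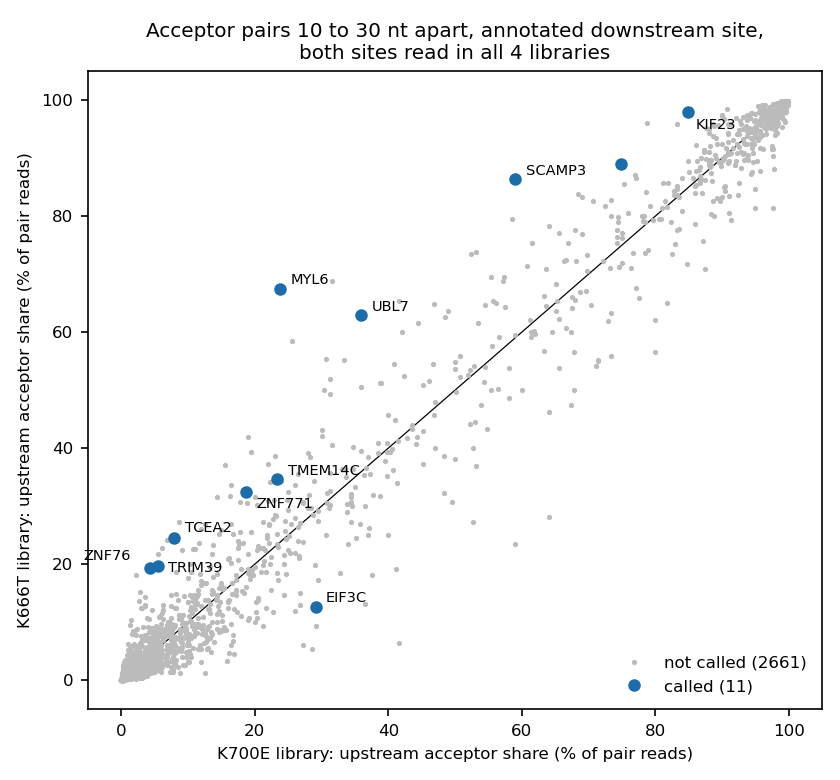
Upstream acceptor share in the K666T library (vertical axis, % of the pair's reads) against the K700E library (horizontal axis, same unit) for the 2672 acceptor pairs 10 to 30 nt apart with an annotated downstream acceptor and both sites read in all 4 libraries; grey points were not called, blue points were called and carry the gene's name where it is reported here, and the line marks equal shares. Of the 11 called pairs, 10 lie above the line and EIF3C lies below it.

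TMEM14C, a mitochondrial membrane protein needed for haem synthesis, carried the deepest of these pairs (hg19 chromosome 6, acceptors at 10724788 and 10724802, 14 nt apart, in a coding exon). The upstream acceptor took 843 of 2432 reads (34.7%) in K666T and 816 of 3491 (23.4%) in K700E, beside 185 of 2784 (6.65%) in WT and 830 of 2322 (35.8%) in R625H. K666T lay beside R625H, and K700E lay between them and WT. The difference of 11.3 points had an adjusted p of 2.64e-18 (Fisher's exact test, Benjamini-Hochberg), and the 95% Wilson intervals, which cover counting error only, were 32.8 to 36.6% in K666T and 22.0 to 24.8% in K700E.

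The zinc finger genes ZNF76 and ZNF771 and TCEA2, a transcription elongation factor of the TFIIS family, carried pairs 12 or 13 nt apart. At ZNF76 (chromosome 6, 35258029 and 35258042) the upstream share was 53 of 274 reads or 19.3% in K666T and 12 of 277 reads or 4.33% in K700E, beside 3.47% in WT and 25.9% in R625H. The K700E value was close to that of WT and the K666T value was not (difference 15 points, adjusted p = 9.76e-06, Fisher's exact test). At TCEA2 (chromosome 20, 62703210 and 62703222) the shares were 24.4% (32 of 131 reads) in K666T and 7.97% (9 of 113 reads) in K700E, beside 2.87% in WT and 21.5% in R625H. This difference of 16.5 points was near the threshold, at an adjusted p of 0.0497 by the same exact test. At ZNF771 (chromosome 16, 30419352 and 30419365) the shares were 32.5% (67 of 206 reads) in K666T and 18.7% (82 of 439 reads) in K700E, beside 15.5% in WT and 31.8% in R625H. The exact test gave an adjusted p of 0.0213 for the 13.8 points between them. In all of these genes the R625H and K666T libraries were high and the WT and K700E libraries were low.

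TRIM39, a ubiquitin ligase, SCAMP3, a secretory carrier membrane protein, and UBL7, a ubiquitin-like protein, used an upstream acceptor that is not annotated. TRIM39 (chromosome 6, 30309462 and 30309488) had upstream shares of 19.7% (28 of 142 reads) in K666T and 5.44% (8 of 147 reads) in K700E, beside 8.62% in WT and 17.4% in R625H. The UBL7 pair (chromosome 15, 74740929 and 74740900, 29 nt apart) stood at 63.0% (63 of 100 reads) in K666T and 35.9% (37 of 103 reads) in K700E, beside 17.8% in WT and 43.9% in R625H. SCAMP3 (chromosome 1, 155228704 and 155228684) differed from these in that WT and R625H were already high, at 79.3 and 77.3%, with 86.4% (57 of 66 reads) in K666T and 59.0% (49 of 83 reads) in K700E. Adjusted p-values of the exact test were 0.0337 for TRIM39, 0.0213 for UBL7 and 0.0323 for SCAMP3. Adding reads that map to several places took the UBL7 difference from 27.1 to 11.2 points, with an adjusted p of 0.253.

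MYL6, a myosin light chain, had the largest difference in this set, 67.5% (52 of 77 reads) in K666T against 23.8% (5 of 21 reads) in K700E, with 58.9% in WT and 66.7% in R625H. With repeat-mapping reads added the difference was 2.31 points (adjusted p = 0.814), so the MYL6 value is uncertain.

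KIF23 and EIF3C rest on short overlaps of read and exon. KIF23, a kinesin of cytokinesis, stood at 96.2, 97.3, 98.0 and 84.9% in WT, R625H, K666T and K700E, with an overhang of at most 1 nt on the downstream acceptor in each library. The EIF3C pair, 30 nt apart in a gene for an initiation factor subunit, is the only one called higher in K700E (29.1% against 12.7% in K666T, adjusted p = 0.0444). With repeat-mapping reads added its difference went from -16.4 to -0.254 points (adjusted p = 0.690). Its downstream acceptor was reached with at most 6 nt in K666T and 2 nt in K700E. Of the 11 called pairs, 8 had an overhang of at least 20 nt on both acceptors in at least 1 of these libraries, and all 8 were higher in K666T.

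**Figure D2:**
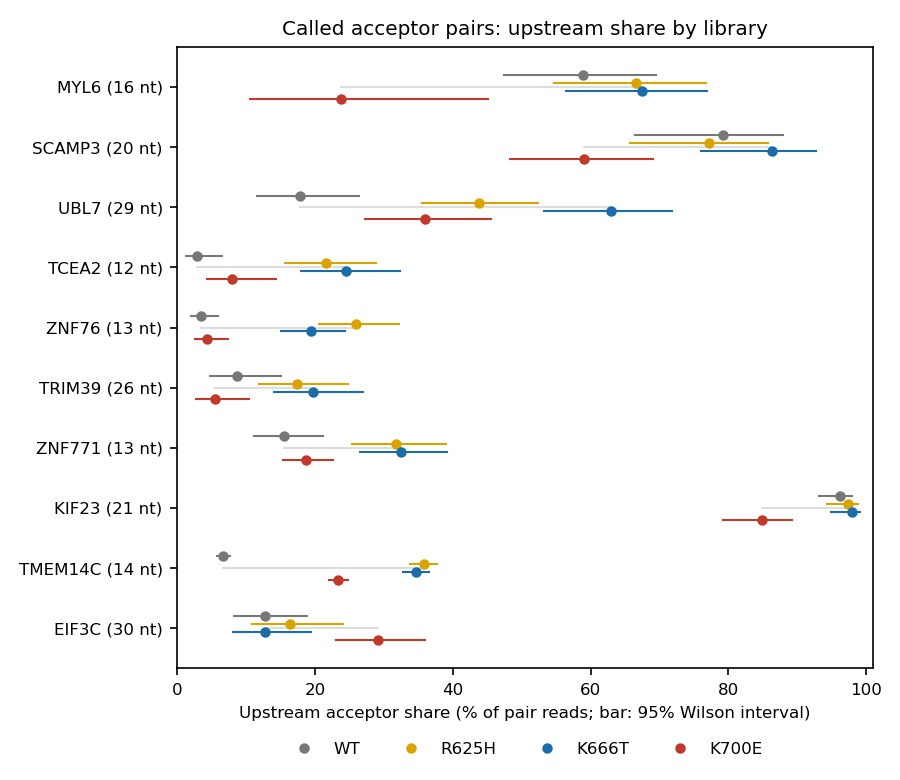
Upstream acceptor share (horizontal axis, % of the pair's reads) of 10 of the 11 called pairs, 1 row each with the distance between the acceptors, in the WT (grey), R625H (yellow), K666T (blue) and K700E (red) libraries; points are shares and bars 95% Wilson intervals. For ZNF771, ZNF76 and TCEA2 the K666T point lies nearer that of R625H and the K700E point lies nearer WT, and for TMEM14C the K700E point lies between WT and the others.

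Larger differences were found where annotation was not required. With p-values adjusted over all 9046 pairs, 33 of the 231 and 24 of the 202 calls had both sites read in all 4 libraries, more than the 19 and 11 called when only the 3725 such pairs were adjusted together. The names that follow come from the larger set. The 12 with the largest differences towards K666T lay in EEF2, PTMA, CEP135, TBC1D10B, MYL6, CAND1, ARMCX3, TMEM183A, CENPO, NUP88, SCAMP3 and a locus matched to no gene. EEF2, translation elongation factor 2, showed 85.3% (29 of 34 reads) in K666T and 11.5% (38 of 331 reads) in K700E, but 4.51 points with repeat reads added. TMEM183A showed 91.2% against 54.4%, and the difference turned to -2.58 points with repeat reads added. The 12 largest towards K700E lay in ELP6, EIF4G2, NT5DC2, DDX41, MORF4L2, PFDN5, EIF3H, OGDHL, C1orf50, SNHG1 and at 2 loci matched to no gene. PFDN5, a prefoldin subunit, had 23.5% (8 of 34 reads) in K666T and 59.0% (59 of 100 reads) in K700E, beside 9.38% in WT and 59.7% in R625H. DDX41, an RNA helicase, had 28.1% (9 of 32 reads) in K666T and 64.1% (25 of 39 reads) in K700E, beside 64.9% in WT and 64.4% in R625H. EIF4G2, an initiation factor, had 17.8% (33 of 185 reads) in K666T and 59.5% (22 of 37 reads) in K700E. At PFDN5 and DDX41 the R625H library lay with K700E. Where a site was unread in a library the share went from 0 to 100%, as in HSPA8 (201 of 201 reads upstream in K666T, 0 of 64 in K700E), DDX21, SSRP1 and SNHG1 towards K666T, and NDUFV1, CKAP5, EEF1G and LAMTOR1 towards K700E. For HSPA8, DDX21 and one pair each of SSRP1 and SNHG1, neither site was read at all in WT or R625H.

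Other classes of splice site pairs gave the level of calls that this test returns in the same libraries. Pairs of acceptors 3 to 9 nt apart had 160 of 8585 (1.86%) higher in K666T and 182 (2.12%) higher in K700E. Acceptors 31 to 100 nt apart had 224 of 8823 (2.54%) and 222 (2.52%). Donor pairs had 18 of 2626 (0.685%) and 20 (0.762%) at 3 to 9 nt, 33 of 3381 (0.976%) and 46 (1.36%) at 10 to 30 nt, and 65 of 5706 (1.14%) and 70 (1.23%) at 31 to 100 nt. Read in all 4 libraries, the counts towards K666T and K700E were 6 and 10 for acceptors 3 to 9 nt apart (0.143 and 0.238%), 12 and 9 for acceptors 31 to 100 nt apart (0.302 and 0.226%), 2 and 2 for donors 3 to 9 nt apart (0.128 and 0.128%), 2 and 0 for donors 10 to 30 nt apart (0.0931 and 0%), and 4 and 5 for donors 31 to 100 nt apart (0.115 and 0.144%). In the annotated set the counts were 2 and 2 of 1875 (0.107 and 0.107%) for acceptors 3 to 9 nt apart and 5 and 1 of 2479 (0.202 and 0.0403%) for those 31 to 100 nt apart. The share of pairs called among acceptors 10 to 30 nt apart was therefore near that of the more distant acceptors when every site was counted. No test of the difference between classes was made.

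A set of pairs chosen without either library gives a broader view of the same trait. In R625H against WT, 111 annotated pairs with sites read in both of those libraries had a called increase of the upstream share, and 108 of them had enough reads in K666T and K700E. Over these the median upstream share was 18.1% in K666T and 16.5% in K700E, beside 2.96% in WT and 23.6% in R625H. K666T exceeded K700E at 73 pairs and fell short at 34, and the median difference was 2.36 points. Over all 2672 annotated pairs K666T exceeded K700E at 1298 and fell short at 1370, with a median of -0.0120 points. Of the 108 pairs, 10 were called higher in K666T and 1 higher in K700E with p-values adjusted over all 9046 pairs, of which 2.55 and 2.23% were called. With p-values adjusted over the annotated set, 5 were called higher in K666T (TMEM14C, ZNF76, ZNF771, TCEA2 and UBL7) and 0 higher in K700E. Of all 2672 annotated pairs, 0.374 and 0.0374% were called. The 5 are among the 10 annotated pairs already given above as higher in K666T. LYPLAL1, not called in the annotated set (adjusted p = 0.143, exact test), stood at 15.9, 70.9, 55.4 and 30.7% in WT, R625H, K666T and K700E, and TGFBR1, a receptor of TGF-beta, at 8.74, 41.8, 33.7 and 16.5% (adjusted p = 0.270). CCDC66 stood at 17.9, 62.3, 54.6 and 40.8%, and MINDY4 at 9.63, 40.9, 37.2 and 22.0%. PFDN5 (adjusted p = 0.0521 in the annotated set) and MFSD9 (0.339) had the higher share in K700E, MFSD9 with 30.7% in K666T and 49.6% in K700E. A split by distance, made after the values were seen, gave K666T above K700E at 36 of 47 pairs 10 to 15 nt apart (medians 19.3 and 16.1%) and at 37 of 61 pairs 16 to 30 nt apart (medians 14.4 and 17.2%). In both distance classes the median of the pairwise differences was above 0, at 2.71 and 1.58 points, although the medians of the shares stood in the opposite order in the wider class. Of the 11 pairs whose upstream share was lower in R625H than in WT, K666T exceeded K700E at 4 and fell short at 7.

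**Figure D3:**
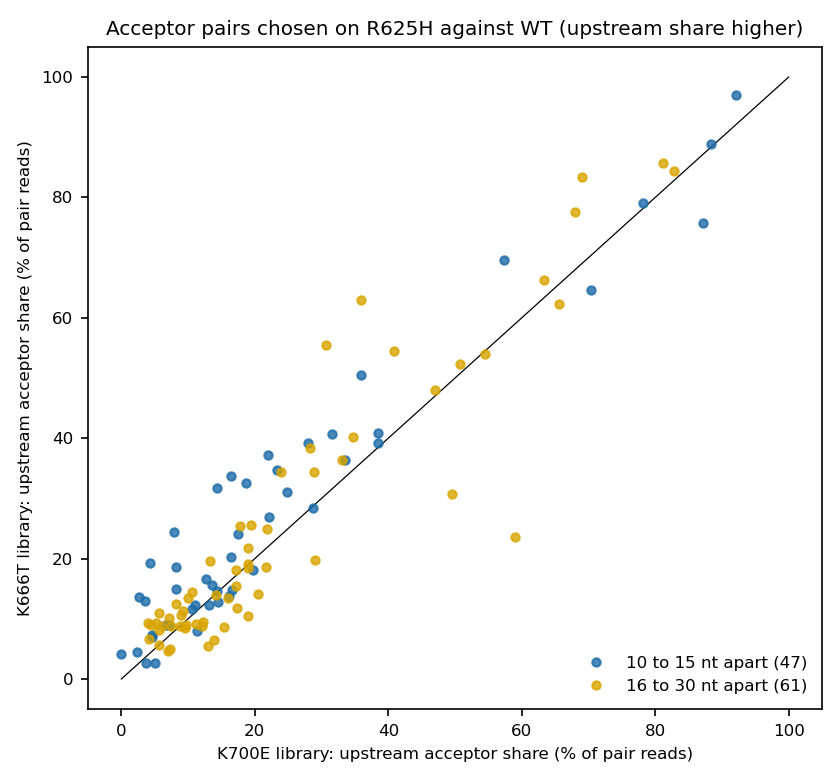
Upstream acceptor share in K666T (vertical axis, % of the pair's reads) against K700E (horizontal axis, same unit) for the 108 pairs whose share was higher in R625H than in WT, coloured by the distance between the acceptors; the line marks equal shares. At 73 pairs the point lies above the line, including 36 of the 47 pairs 10 to 15 nt apart.

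Summed over the 3978 pairs in which only the downstream acceptor is annotated, the order of K666T and K700E was the reverse. The pooled upstream share was 0.379% (95% Wilson interval 0.374 to 0.383) in K666T and 0.402% (0.398 to 0.407) in K700E, beside 0.202% in WT and 0.524% in R625H. Broken down by distance, K666T and K700E had 1.07 and 1.04% at 10 to 14 nt, 0.513 and 0.535% at 15 to 19 nt, 0.272 and 0.307% at 20 to 24 nt, and 0.249 and 0.263% at 25 to 30 nt. The intervals overlapped at 10 to 14 nt (1.04 to 1.10 and 1.01 to 1.07) and did not at 20 to 24 nt (0.266 to 0.278 and 0.300 to 0.313). Both libraries lay between WT and R625H in each of these bins. Beyond them, at 31 to 100 nt, the shares were 0.267 and 0.274%, with WT at 0.206 and R625H at 0.252%. A pooled share is led by the most deeply read pairs, and its interval covers counting error only.

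Pairs in genes long known for cryptic acceptors in SF3B1-mutant cells included calls in both directions. Of 64 tested pairs in 25 such genes, 3 were called higher in K666T and 2 higher in K700E, with a median difference of 0.101 points. Over all 9046 pairs the called shares were 2.55 and 2.23%, and the median difference was -0.00843 points. Among the 34 with an annotated downstream site read in all 4 libraries the calls were TMEM14C and UBL7, both higher in K666T, and 5 pairs had an adjusted p under 0.05, against 30 of all 2672. DYNLL1, a dynein light chain, had upstream shares of 27.0% (2194 of 8139 reads) in K666T and 22.1% (2532 of 11476 reads) in K700E, beside 7.599% in WT and 31.8% in R625H. Its adjusted p was 2.44e-12, but the 4.89 points lay under the size threshold. SERBP1, an RNA-binding protein, had 66.2% in K666T and 63.4% in K700E, beside 52.6% in WT and 67.5% in R625H (adjusted p = 0.00162, exact test). DLST, an enzyme of the citric acid cycle, had 18.5% (173 of 934 reads) in K666T and 18.98% (172 of 906 reads) in K700E, beside 1.33% in WT and 26.2% in R625H. GCC2, a golgin, had 0.781, 55.4, 39.1 and 38.5%. ZDHHC16 had 3.27, 21.1, 19.1 and 18.99%, DPH5 0.143, 18.9, 18.1 and 19.7%, and ENOSF1 3.72, 42.8, 28.5 and 28.8%. BRD9, a chromatin remodelling subunit, had 51.9, 85.6, 88.9 and 88.3%. In each of DLST, GCC2, ZDHHC16, DPH5, ENOSF1 and BRD9 all 3 mutant libraries stood far above WT and K666T and K700E lay within 2 points of each other. MAP3K7, a kinase of NF-kB signalling, had 25% in K666T and 21.9% in K700E, beside 9.06% in WT and 23.2% in R625H. ORAI2 had 38.5% in K666T and 28.3% in K700E for its pair 23 nt apart, with an adjusted p of 0.697 at 104 and 145 reads.

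Among cassette exons, which are either spliced in or skipped between a pair of outer splice sites, more were called higher in K666T than in K700E. Of 106578 exon and junction combinations, 546 (0.512%) were called higher in K666T and 428 (0.402%) higher in K700E. With all 3 junctions read in every library the counts were 81 (0.155%) and 33 (0.0631%) of 52328. For annotated exons read in all 4 libraries they were 52 (0.134%) and 16 (0.0413%) of 38714, in 43 and 16 genes. Over all 38714, K666T exceeded K700E at 21324 and fell short at 17309, with a median difference of 0.0986 points. Of 34 annotated exons called higher in R625H than in WT, K666T exceeded K700E at 16 and fell short at 17. Of 53 called lower in R625H, it exceeded K700E at 28 and fell short at 24. Inclusion was the mean of the reads into and out of the exon, and in some genes only 1 of those junctions changed. When the lower of the 2 inclusion junctions was used instead, 14 of the 52 and 5 of the 16 were still called, 5 and 2 took the other sign, and 3 and 2 were not tested. The exons below were called on both measures unless stated.

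HNRNPA2B1, which encodes a nuclear RNA-binding protein that itself controls splicing, had the smallest adjusted p of these (hg19 chromosome 7, 26230613 to 26230748, a 136-nt non-coding exon). Inclusion was 66.9% (769 of 1149 reads) in K666T and 43.1% (623 of 1446 reads) in K700E, beside 51.6% in WT and 61.2% in R625H (adjusted p = 7.66e-30, exact test). K666T was the highest of the 4 libraries and K700E the lowest. The skipping junction had 486, 346, 380 and 823 reads in WT, R625H, K666T and K700E, while the junctions into the exon had 466, 484, 708 and 665. HMGA1, a chromatin protein, had a 114-nt non-coding exon (chromosome 6, 34204981 to 34205094) included at 58.4% (381 of 652 reads) in K666T and 41.7% (398 of 955 reads) in K700E, beside 61.2% in WT and 61.3% in R625H (adjusted p = 8.31e-08, exact test). Here K700E stood alone and the other 3 libraries lay together. Exons of MTX1, a protein of mitochondrial import, and KTN1, a kinesin receptor, were deep as well. MTX1 stood at 80.6% in K666T and 67.9% in K700E, beside 76.1% in WT and 82.4% in R625H, and KTN1 at 38.8, 45.3, 49.97 and 39.6%. The largest difference called on both measures was SPATA7 (96 nt), with 72.7% (40 of 55 reads) in K666T and 40.5% (34 of 84 reads) in K700E, beside 48.7% in WT and 53.1% in R625H. TTLL4, ABHD11, RBM41, MICAL3, C6orf89, PABIR2, SNHG5, HHLA3 and TMEM167B had smaller differences, from 10.2 points in TMEM167B to 18.2 points in TTLL4. For C6orf89 the largest overhang on the skipping junction and on 1 inclusion junction was 18 nt in K666T and K700E.

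Exons included more in K700E on both measures included those of ATF3, SPEN, VARS2 and OCRL. ATF3, a stress-induced transcription factor, had a 43-nt coding exon (chromosome 1, 212788360 to 212788402) that was skipped by 72 reads in K666T and 6 in K700E, beside 48 in WT and 98 in R625H. Reads out of the exon numbered 64 in K666T and 63 in K700E, so on that junction alone the difference was -44.2 points and on the mean of both -13.0 points (adjusted p = 4.04e-09, exact test). With repeat reads added, the ATF3 difference was 4.84 points in the other direction. SPEN, a large nuclear repressor, had 82.7% in K666T and 96.2% in K700E, beside 92.0% in WT and 82.5% in R625H. VARS2, the mitochondrial valyl-tRNA synthetase, had 87.1, 76.8, 74.9 and 89.7%. In SPEN and VARS2 the K666T library lay beside R625H and the K700E library lay beside WT. Among all called annotated exons K700E was less often the nearer of these libraries to WT. K666T lay nearer WT than K700E did in 40 of the 52 higher in K666T and 10 of the 16 higher in K700E. K666T also lay nearer R625H than K700E did, in 45 and 13 of them. K700E lay outside the range from WT to R625H in 49 and 14 of them, and K666T in 41 and 11. OCRL, a phosphatase with a 24-nt exon, had 26.3, 30.2, 22.95 and 34.3%.

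**Figure D4:**
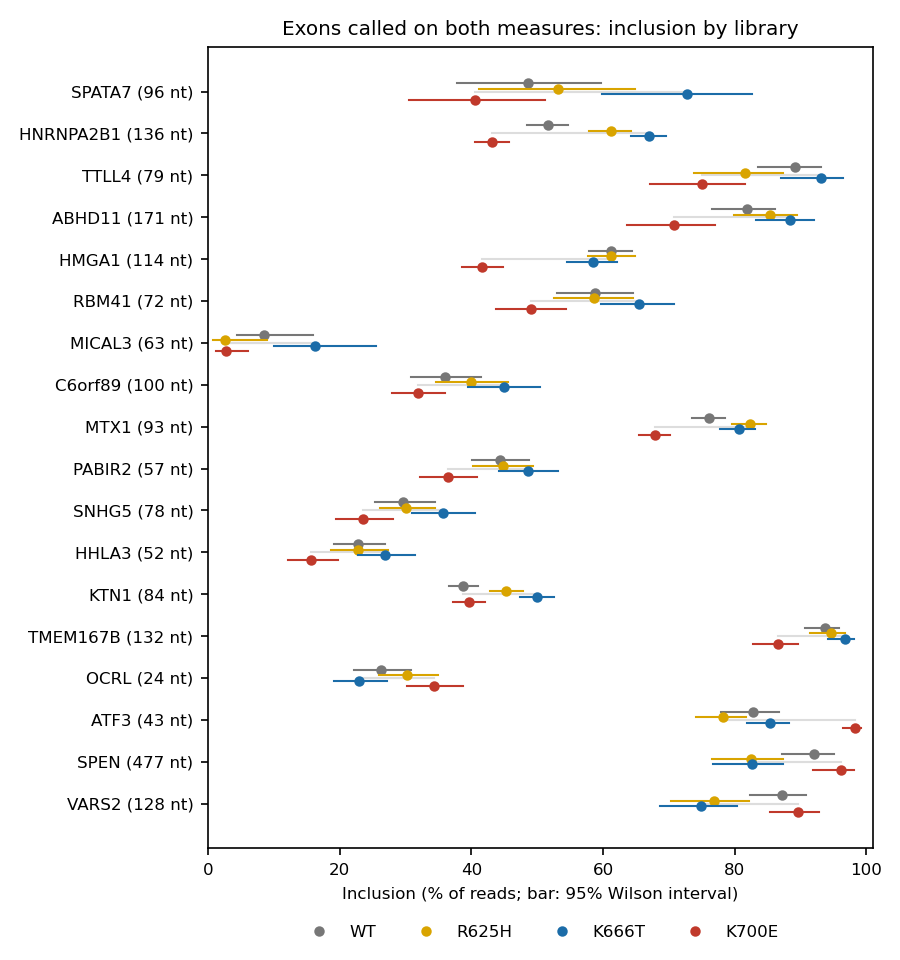
Exon inclusion (horizontal axis, % of reads) in the WT (grey), R625H (yellow), K666T (blue) and K700E (red) libraries for 18 of the 19 annotated exons called on both measures, 1 row each with the exon's length; points are shares and bars 95% Wilson intervals. The 14 upper exons are higher in K666T and the 4 lower ones, from OCRL to VARS2, are higher in K700E.

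Several exons with large differences held on the mean of the junctions only. ABCC5, an export pump, had the largest difference among the 68 annotated exons called, with 57.0% in K666T and 15.96% in K700E, beside 9% in WT and 38.2% in R625H (adjusted p = 4.99e-06, exact test). Its reads into the 75-nt exon were 15, 61, 100 and 29, and its reads out of it 3, 6, 5 and 1. Against another skipping junction, the same ABCC5 exon stood at 90.8% (79 of 87 reads) in K666T and 92.6% (25 of 27 reads) in K700E. That difference was -1.79 points and was not called, so the larger ABCC5 difference holds for the first skipping junction only. For MRPL22, a mitochondrial ribosomal protein, the junction into the exon had 28 reads in K666T and 63 in K700E against 1334 and 1281 out of it, and on the lower junction the difference was -1.08 points. CDK4, the cell cycle kinase, had 4 overlapping exon forms that share junctions, with 21.7 to 25.9 points, and none of them passed on the lower junction (adjusted p from 0.122 to 0.130). WARS1, the tryptophanyl-tRNA synthetase, had 3 overlapping non-coding exons with inclusion between 18.9 and 24.5% in K666T and between 8.30 and 11.4% in K700E. The junction that skips them had 142 reads in K666T and 497 in K700E, beside 66 in WT and 107 in R625H. NT5C3A, a pyrimidine nucleotidase, had a 55-nt exon at 40.1, 41.3, 34.9 and 60.1% in WT, R625H, K666T and K700E (adjusted p = 3.08e-07). TAF6, PREPL, C19orf12, APEH and GIPC1 went towards K666T, and UBE2G2, MORF4L2 and IMMP1L towards K700E, IMMP1L with 0.912 points in the other direction on the lower junction. Outside the annotated set, and with p-values adjusted over all exons tested, the named exons towards K666T were those of ZNF41, CCDC14, OCEL1, DUXAP9, CEP57L1, MRPS15 and PYM1, and those towards K700E lay in NCL, ATF3, TMEM183A, FAF2, TRMT13, BTBD9 and UBE2B. NCL, the nucleolar protein nucleolin, had 75.0, 23.1, 15.8 and 76.5%, again with R625H beside K666T and WT beside K700E.

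Of the 67 measured genes that held a called annotated pair or exon, 0 differed 2-fold in level between the libraries, where 0.599% of all genes were past 2-fold higher in K700E and 0.115% past 2-fold lower, so the count is near the background. Their median log2 ratio of K700E to K666T was 0.01.

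Many of the genes higher in the K700E library belong to the interferon response. Cells start this antiviral programme when nucleic acid sensors detect foreign RNA or DNA. Secreted interferon acts through JAK kinases, STAT factors and IRF9 on promoters with an interferon-stimulated response element. Ratios are log2(K700E over K666T) of CPM with a prior count of 10 added, and intervals are 95% intervals of the ratio without that prior, for counting error only. Of 14847 genes, 89 (0.599%) were at least 2-fold higher in K700E and 17 (0.115%) at least 2-fold lower. Of the 89, 48 belonged to 5 lists of interferon genes that together hold 81 measured genes, and none of the 17 did. At 4-fold the counts were 45, with 32 in those lists, and 2. The median ratio over all genes was 0.00.

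Effectors of the interferon response were higher in K700E throughout the list. All 38 measured members had a ratio above 0 (49.1% of all genes did), 34 were past 2-fold, and the median was 2.29. Relative to WT the list medians were 1.56 in R625H, 1.24 in K666T and 3.45 in K700E, so every mutant library was above WT and K700E was the highest. RSAD2 (viperin), which makes a chain-terminating nucleotide, had 10.6 CPM in K666T and 184 in K700E, beside 1.19 in WT and 16.5 in R625H, a ratio of 4.11 (4.03 to 4.22). OAS2, which makes the 2′-5′ oligoadenylates that activate RNase L, had 0.308, 4.24, 2.84 and 48.2 CPM, and its ratio was 4.03. Its relatives OAS1, OAS3 and OASL had ratios of 3.34, 2.46 and 3.08. The IFIT proteins bind foreign 5′ ends of RNA. IFIT1 was at 142 CPM in K666T and 1192 in K700E, beside 29.7 in WT and 204 in R625H, with a ratio of 3.07 (3.05 to 3.10), and IFIT2 and IFIT3 had ratios of 3.53 and 3.29. ISG15, a ubiquitin-like modifier, was at 8.69, 51.2, 38.7 and 186 CPM, with a ratio of 2.26. The membrane proteins IFITM1, IFITM3 and BST2, which hold virus particles or block their entry, had ratios of 2.71, 2.35 and 2.53. XAF1, APOL6, TRIM22, MX2, APOL1, GBP1 and IFI44 completed the genes with the 15 highest ratios in all, together with an entry that the name table does not pair with a symbol, and ranged from 3.11 for IFI44 to 3.84 for XAF1. K700E was the highest library in all 38 effectors, and in 34 of them the full order was WT, K666T, R625H and K700E from low to high. The members under 2-fold were ADAR (0.63), IFITM2 (0.51), RNF213 (0.46) and ZC3HAV1 (0.38).

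**Figure D5:**
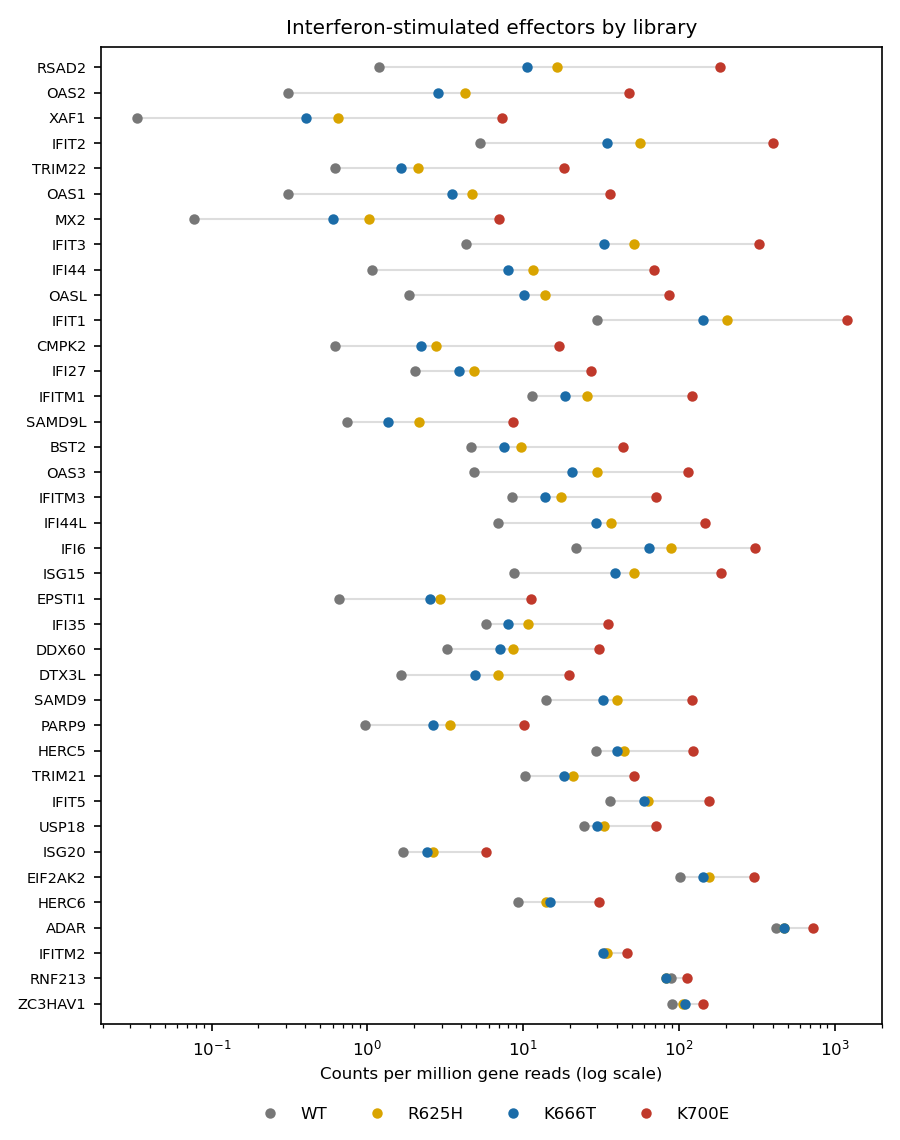
Level of the 38 measured interferon-stimulated effectors in CPM (horizontal axis, log scale) in the WT (grey), R625H (yellow), K666T (blue) and K700E (red) libraries, 1 row a gene, ordered by the ratio of K700E to K666T. The K700E point is the rightmost in every row, and the widest gap to K666T is that of RSAD2, 10.6 against 184 CPM.

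Sensors and the proteins that pass their signal on differed in parts. Of 12 measured genes of cytosolic RNA and DNA sensing, 4 were past 2-fold (0.599% of all genes were), and the list's median was 0.12. RIGI, the sensor of RNA with a 5′ triphosphate, was at 35.4 CPM in K666T and 193 in K700E, beside 9.80 in WT and 47.1 in R625H (ratio 2.45). IFIH1, the sensor of long double-stranded RNA, DHX58 and the DNA sensor IFI16 had ratios of 2.02, 2.04 and 1.92. The adaptors MAVS, STING1 and TICAM1 had ratios of 0.07, 0.09 and -0.01, and the kinase TBK1 of 0.02. Of 13 interferon regulatory and STAT factors and receptors, 3 were past 2-fold (median 0.21). IRF7, a factor that induces interferon genes, was at 2.43 CPM in K666T and 7.96 in K700E, beside 0.803 in WT and 2.67 in R625H (ratio 1.66), and STAT2 had a ratio of 1.23. The receptor chains IFNAR1 and IFNAR2 had -0.03 and 0.16, and IRF3 0.18. IFNB1, interferon beta itself, was read 57 times in K666T and 362 times in K700E, beside 8 in WT and 67 in R625H (ratio 2.53, 2.32 to 3.15), and the chemokines CXCL10 and CXCL11 had ratios of 2.80 and 2.15. CXCL8 and CXCL2, targets of NF-kB, had 0.40 and -0.53. The 15 NF-kB subunits and feedback genes had a median of 0.03 and none was past 2-fold.

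Antigen presentation by MHC class I, which interferon raises, followed at a smaller size. All 13 measured genes had a ratio above 0 (49.1% of all genes did). Past 2-fold were 4 of them (0.599% of all genes were), and the median was 0.61. PSMB9, a subunit of the immunoproteasome, was at 0.509 CPM in K666T and 3.65 in K700E, beside 0.627 in WT and 1.07 in R625H (ratio 2.59). NLRC5, the activator of class I genes, had 3.24, 3.64, 3.63 and 16 CPM, with a ratio of 2.10, and TAP1, the peptide transporter, had 1.47. For NLRC5 the R625H and K666T libraries stayed near WT, and K700E alone was high. B2M, the light chain, had a ratio of 0.61 and HLA-E 0.89. HLA genes are close in sequence, so reads may be split among them.

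Many promoters of the genes higher in K700E held the core of the interferon-stimulated response element. The motif, GAAA followed by any 2 bases and a further GAAA, was searched on both strands (TTTC, any 2 bases, TTTC on the other) in RefSeq promoters of GRCh38.p14, from 250 bases before to 50 after each start, and was found in 4.38% of 27305 genes. Of the 89 genes at least 2-fold higher in K700E, 57 had a promoter in that table and 35 of these (61.4%) held the motif. Of the effectors 22 of 31 (71.0%) held it, as did 7 of 10 (70.0%) of the class I genes, 1 of 9 sensing genes and none of 8 regulatory and STAT factors. None of the 6 promoters of genes at least 2-fold lower in K700E held it. A match is a description of the letters in this window. The windows below show it in capitals in 5 effectors with large ratios and in B2M, each read on the plus strand of the chromosome or, for genes on the minus strand, as the gene runs.
RSAD2: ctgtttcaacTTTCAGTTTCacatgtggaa
IFIT1: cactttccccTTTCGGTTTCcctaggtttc
IFIT3: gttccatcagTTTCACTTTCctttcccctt
ISG15: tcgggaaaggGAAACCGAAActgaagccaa
BST2: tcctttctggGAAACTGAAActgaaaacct
B2M: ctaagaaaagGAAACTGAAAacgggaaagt
These lie at chr2:6877622-6877651 (RSAD2), chr10:89392510-89392539 (IFIT1), chr10:89332468-89332497 (IFIT3), chr1:1013380-1013409 (ISG15), chr19:17405741-17405770 (BST2, minus strand) and chr15:44711369-44711398 (B2M), all in GRCh38.p14.

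Among the lists outside the interferon response, the mitochondrially encoded genes had the median furthest from 0. Of 13 mitochondrially encoded genes 10 had a ratio under 0, as did 50.9% of all genes (list median -0.31): MT-CYB, a subunit of complex III, was at 1644 CPM in K666T and 1009 in K700E, beside 1753 in WT and 1848 in R625H (ratio -0.70), and MT-ATP6 had -0.64. MT-ND6, the one of them encoded on the light strand, had 256, 258, 256 and 670 CPM, with a ratio of 1.39 that was 0.42 in counts without strand. Heat shock genes had a median of -0.02. HSPE1, the mitochondrial chaperonin 10, had a ratio of -1.12 and has many near-identical copies, so its count is uncertain. The unfolded protein response list had a median of -0.09, with SDF2L1 at -0.54 and XBP1 at -0.27. Of 20 listed replication-dependent histones only 9 were measured. All 9 had a ratio above 0 (49.1% of all genes did), with a median of 0.17 and H1-4 at 0.42. Medians were -0.04 for the integrated stress response, 0.06 for p53 targets, -0.03 for immediate early genes, 0.02 for cholesterol synthesis, where CYP51A1 had 0.59, 0.03 for serine and one-carbon metabolism, -0.02 for hypoxia and glycolysis and 0.00 for cytosolic ribosomal proteins. The U2 snRNP and branch point list had a median of 0.07, SR and hnRNP proteins 0.00, with HNRNPA2B1 at 0.27, and nonsense-mediated decay 0.06, with MAGOH at 0.38. No member of these last lists was past 2-fold.

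The genes with the lowest ratios were mainly short or repeated transcripts. NPIPB11 was read 91 times in K666T and 24 times in K700E, beside 21 in WT and 23 in R625H (ratio -1.53), so there the K666T library stood alone. BLOC1S1, a subunit of the lysosome-related organelle complex, was at 2.63, 2.65, 2.45 and 1.05 CPM (ratio -1.14), and TMEM158 at 2.94, 2.25, 3.01 and 1.32 CPM (ratio -1.12). LINC02249 and TUBA1B-AS1 had ratios of -1.12 and -1.08, the latter -0.24 without strand. TSIX, which is antisense to another gene, had -2.29 with strand and 0.22 without. Of the remaining lowest genes, RPL13AP25, RPL37P2, RPL6P19, RPS15P4, RPL13P12, MTCO3P12 and MTND2P28 are pseudogenes. Their ratios ran from -1.43 in RPL13AP25 to -1.07 in RPL13P12. Some of their reads may come from their parent genes, which was not tested. A further entry with no symbol had the lowest ratio of all genes, -3.98.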

How the data were processed

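RNA of 4 libraries was sequenced with a stranded poly(A) kit as paired 100-bp reads, per the labels' protocols. The tools STAR 2.5.3a and HTSeq and the build hg19 are named, per the submitters' processing notes. The deposited files hold whole-number counts: unique and repeat-mapped reads for each splice junction, and reads for each gene with and without strand. The deposited junction files also give the largest overhang of a read as another number, in nt. Reverse-strand gene counts (column 4) were used.

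Junctions with a GT-AG, GC-AG or AT-AC motif and at least 5 unique reads over the 4 libraries were kept. This minimum was chosen after the data were seen. Neighbouring acceptors (or donors) of 1 site formed pairs, and exons of 10 to 500 nt between junctions sharing outer ends with a skipping junction formed cassettes. Pairs and exons with at least 20 reads in both libraries were tested with a two-sided Fisher's exact test on the reads (scipy 1.17.1), adjusted by Benjamini-Hochberg within a class. Gene structures of GENCODE 29 (GRCh38) were matched to hg19 junctions by intron lengths and order. This placed 15873 of 18228 protein-coding genes that have 2 or more introns, and only hg19 positions of the files are printed for junctions. Genes with at least 1 CPM in at least 1 library were compared by ratio, with no test. Library sizes were total gene reads, with edgeR 4.0.16's TMM and DESeq2 1.42.0's median of ratios as alternatives. There was 1 library per vector, so p-values measure only reads of these libraries, which are not independent molecules.

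The members, gene lists and tests were chosen with earlier results of these data known. Named pairs and exons were the 12 called with the largest difference in each direction among those read in all 4 libraries, the 5 largest in each direction among the others, and tested pairs of a list of known SF3B1 acceptor genes. Named genes were the 15 with the highest and the 15 with the lowest ratio, the 4 largest of each list, and SF3B1. Other names in the text were chosen after their values were seen: those of the annotated sets, of the set chosen on R625H, and further members of the interferon, class I and mitochondrial lists. In simulated reads at the depths of 2672 annotated pairs, 85 of 100 pairs changed by 15 points were called. Of pairs changed by 30 points 95 of 100 were called, and of unchanged ones 2 of 2472. The simulated reads held counting error only, with no variation between libraries, so these rates do not give the rate of false calls in the real libraries. Results for some genes are not reported here.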

Additional observations from a re-analysis of the deposited data

How the results depend on the processing

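No paired analysis was possible because each vector has 1 library, and no library could be left out for the same reason. For cassette exons the annotated set and the lower inclusion junction, and for the control classes the limit to sites read in all 4 libraries, were chosen after the data were seen. For acceptor pairs 10 to 30 nt apart, the 231 calls higher in K666T and 202 higher in K700E became 127 and 113 with a minimum of 50 reads, 25 and 19 with sites read in both libraries, 19 and 11 with sites read in all 4, 10 and 1 when also annotated, 355 and 324 at 5 points, and 379 and 344 with repeat-mapping reads added. For cassette exons, 546 and 428 became 383 and 266 at 50 reads, 97 and 51 with sites read in both, 81 and 33 in all 4, 52 and 16 when also annotated, 342 and 301 at 20 points, 2511 and 2156 with repeat-mapping reads added, and 61 and 22 for annotated exons on the lower inclusion junction. The calls of the 5 control classes, in either direction, became 541, 80 and 52 with 50 reads, sites read in both and sites read in all 4. Genes at least 2-fold higher in K700E numbered 89, or 148 with no filter, 193 at 1.5-fold and 45 at 4-fold; genes lower numbered 17, or 30 with a prior count of 1, 64 with no filter, 4 with a minimum of 5 CPM, 122 at 1.5-fold and 2 at 4-fold. With repeat-mapping reads added, the difference changed sign at TMEM183A (-2.58 points), TBC1D10B (-1.76), the ATF3 exons of 43 and 20 nt (4.84 and 7.54) and both DUXAP9 exons (-6.95 and -11.6). On the lower inclusion junction, among all exons and among annotated ones alike, it changed sign at IMMP1L (0.912), RPL13A (0.706), AURKA (-0.934), CENPK (-2.87), MRPL22 (-1.08), HNRNPH1 (-0.0780) and the 140-nt exon of ABHD11 (-3.14). The TSIX ratio was 0.22 in counts without strand. Of 829 values for 120 single pairs and exons, 633 kept their direction and side of the threshold, 176 kept the direction only and 20 changed sign. The cause of these changes was not tested.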
